A study of Rattus norvegicus with 12 samples.

Results

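Cathepsins and cystatins are the proteases of the lysosome and the small proteins that inhibit them. Here 9 such genes were followed, of 22442 gene records in the expression table. They were the cystatins Cstb and Cst3, the cysteine cathepsins Ctsb, Ctsk, Ctsl, Ctss and Ctsz, the aspartic protease Ctsd and the serine carboxypeptidase Ctsa. Members were taken by gene name, and each of the 9 names had 1 record. The cells were third-passage fibroblast-like synoviocytes (FLS), grown out of the synovium of male Sprague Dawley rats with adjuvant arthritis (AA), a joint inflammation raised by an injection of complete Freund's adjuvant. All 4 groups were AA cells, so no healthy synovium is among them. The FCA group received only culture medium (DMEM). Groups AT10, AT1 and AT01 were given the bile acid taurochenodeoxycholic acid (TCDCA) at 10, 1 and 0.1 µM for 12 h, with 3 poly(A) RNA libraries in each group. The study describes the replicate numbers as sets of repeated experiments, and nothing in the sources used here says whether the 3 libraries of a group came from separate animals or cultures, so p-values measure only the spread between these libraries, which may be technical.

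Cathepsins are made as inactive precursors and are mostly activated in the acid interior of the lysosome, where they break down proteins. Cysteine cathepsins that leave the lysosome are held by cystatins: cystatin B, the product of Cstb, acts inside the cell, and cystatin C, the product of Cst3, is secreted. In arthritic joints, synovial fibroblasts are known as a source of cathepsins, and cathepsin K, which cuts collagen, is also the main matrix protease of osteoclasts. Cystatins do not inhibit the aspartic cathepsin D or the serine carboxypeptidase cathepsin A.

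Expression was measured as FPKM, fragments per kilobase of transcript scaled to the mapped fragments of the library, which is a level per length and allows levels of different genes to be set side by side. The read counts behind the values were not used here, so the depth behind a single value is unknown and no counting interval is given. FPKM summed to between 284210 and 309696 per library. Of 15 markers of synovial fibroblasts, 13 were found and all 13 averaged at least 1 FPKM. Of 15 macrophage markers, 10 were found and 2 averaged at least 1 FPKM, with Cd14 between 3.60 and 18.8 FPKM and Cd68 between 1.66 and 2.91 FPKM, while Csf1r reached at most 0.26 FPKM. Of the 7 osteoclast markers found, 3 averaged at least 1 FPKM, and all 7 endothelial and all 6 lymphocyte markers found averaged below 1 FPKM. RNA was extracted from whole cultures, so fewer cells of a type and less RNA per cell cannot be told apart.

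The promoters of 2 members are shown because they carry the letters CACGTG, the E-box core that lies at the centre of the CLEAR element of lysosomal genes, which the factor TFEB is known to bind. Promoters were windows of 300 bases around the gene start, mostly upstream of it, from RefSeq (build GRCr8), and 8 of the 9 members had one. CACGTG, which reads the same on both strands, was present in 2 of these 8, Cstb and Ctsd, and in 6.42% of 33469 promoters of the same length. The 3 windows of 30 bases below run 5′ to 3′ along the gene, with CACGTG in capitals. They lie on the minus strand at chr20:10247204-10247233 for Cstb, and at chr1:206968961-206968990 and chr1:206968814-206968843 for Ctsd.
Cstb, 22 bases before the start: ccttcgctctgtCACGTGccacgggtccag
Ctsd, 157 bases before the start: tctttcttccccCACGTGactcgcatccag
Ctsd, 10 bases before the start: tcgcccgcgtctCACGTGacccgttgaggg
A match is a description of these letters only. Cstb and Ctsd are the members with the motif, and their levels are given with the others.

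On the FPKM scale the members spanned a wide range of levels. Ctsl had the highest mean over the 12 libraries, 560.6 FPKM, which placed it at rank 60 of all records, followed by Cst3 at 410.5, Ctsd at 375.5, Ctsb at 252.1, Cstb at 164.8, Ctsa at 155.0, Ctsk at 59.3, Ctsz at 2.78 and Ctss at 0.561 FPKM. Within single libraries this order held in 12 of 12 libraries for 6 of the 8 neighbouring pairs. Cst3 was above Ctsd in 8 of 12 libraries and Cstb was above Ctsa in 9 of 12, so neither pair kept the same order in all libraries. The pairs were not tested. Together the 9 genes made up between 0.579% and 0.718% of the FPKM of a library.

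**Figure D1:**
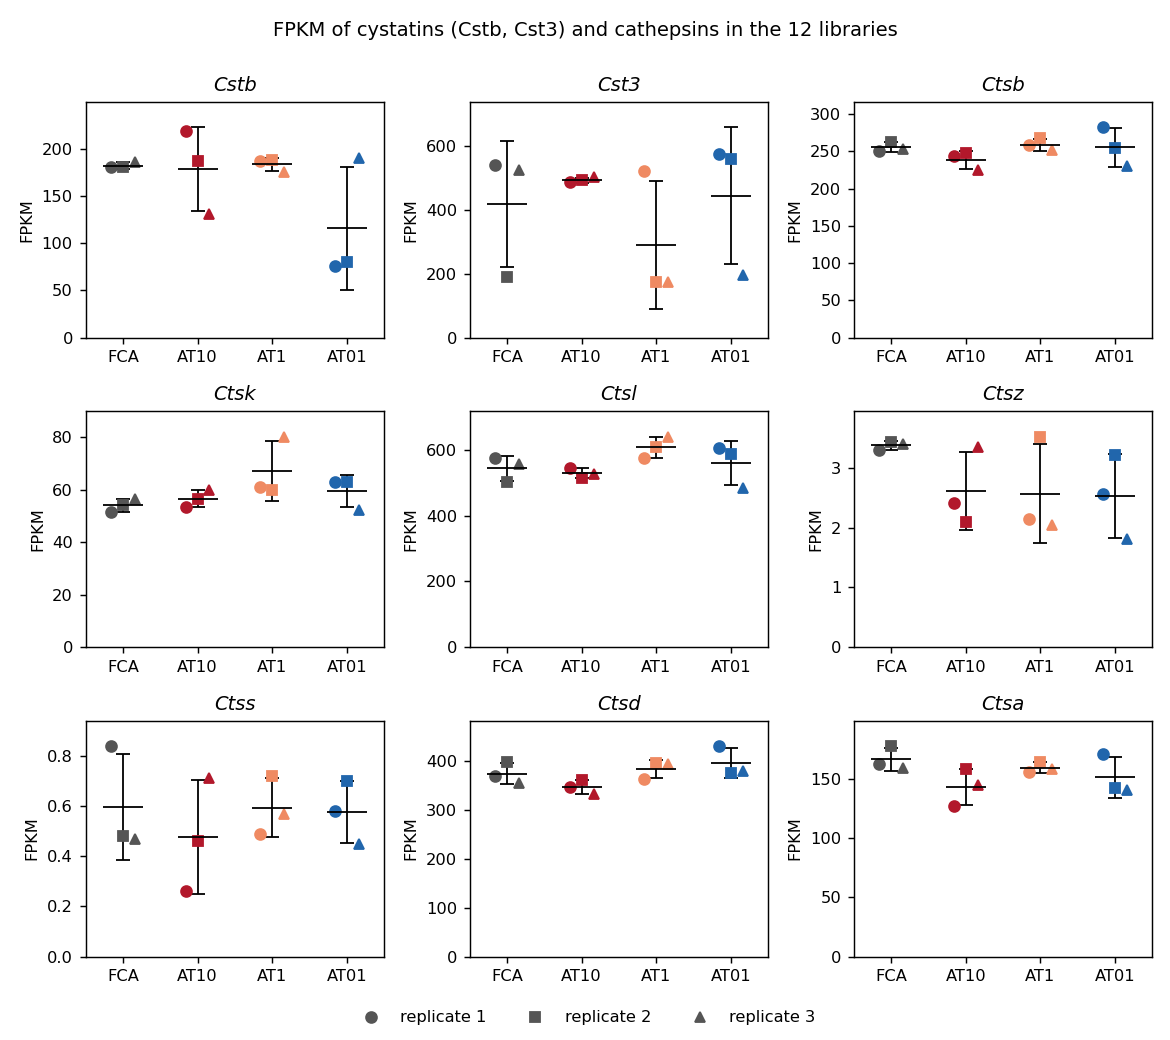
FPKM of each of the 9 genes (1 panel a gene) in the 12 libraries by group, with 1 point per library, a black bar at the group mean and whiskers of 1 SD (n = 3). Cst3 lies either between 173.4 and 196.0 or between 485.1 and 575.0 FPKM, and Cstb is lowest in AT01 replicates 1 and 2, while the abundant cathepsins stay in narrow ranges.

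Cstb, the intracellular inhibitor, was at 180.1, 180.2 and 185.9 FPKM in FCA replicates 1, 2 and 3 and at 187.2, 187.5 and 174.9 FPKM in AT1. It was at 218.1, 186.6 and 130.7 FPKM in AT10 and at 75.9, 80.1 and 190.5 FPKM in AT01. AT01 replicates 1 and 2 were the lowest of all 12 libraries, AT01 replicate 3 was above every FCA library, and the groups overlapped. In AT01 against FCA the log2 fold change was −0.79 (SE 0.36, 95% interval −1.68 to 0.10, limma adjusted p = 0.722, exact permutation p = 0.4), and in AT1 against AT01 it was 0.79 (SE 0.36, interval −0.11 to 1.69, adjusted p = 1). That Cstb was not called in these comparisons rested on AT01 replicate 3. Without it, the value was −1.21 against FCA (limma adjusted p = 0.0168) and 1.22 for AT1 against AT01 (adjusted p = 0.0188), with the remaining 2 AT01 libraries. In these reduced fits 0.138% and 0.215% of all records passed an adjusted p under 0.05. AT01 replicate 3 is the library apart from the other 2, so leaving it out narrows the spread, and the small p-values follow from that choice. With any other library left out, the limma adjusted p against FCA was between 0.617 and 0.964. AT10 and AT1 were at −0.06 (interval −0.53 to 0.41) and 0.01 (interval −0.12 to 0.14) against FCA on the log2 scale. The study picked Cstb for further measurement from these same libraries, so its values are not independent evidence of a direction.

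Cst3, the secreted inhibitor, was at 540.4, 189.1 and 522.2 FPKM in FCA and at 485.1, 490.9 and 500.7 FPKM in AT10. It was at 520.4, 174.6 and 173.4 FPKM in AT1 and at 575.0, 558.7 and 196.0 FPKM in AT01. The 12 libraries thus sat at 2 levels, 4 libraries at 183.3 ± 11.1 FPKM (FCA replicate 2, AT1 replicates 2 and 3, and AT01 replicate 3) and 8 libraries at 524.2 ± 32.2 FPKM, a 2.86-fold difference with a gap of 1.30 on the log2 scale. AT10 was the only group with all 3 libraries at the upper level. Such a pattern, in which the widest gap between sorted log2 values is 1 or more, exceeds the range of both levels and leaves at least 2 libraries on each side (a definition chosen after the values were seen), occurred in 4.52% of the records tested (525 of 11611) and in 1 of the 8 members tested. Among these 525 records, no other split the libraries in the same way, and records outside the definition were not compared. The other members did not follow the split: mean FPKM in the 4 lower libraries over that in the 8 upper ones was between 0.961 and 1.07 for the 6 cathepsins tested and 1.18 for Cstb.

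The group differences of Cst3 depended on how many libraries of a group sat at each level. The log2 fold change was 0.39 (SE 0.42, 95% interval −0.65 to 1.42, limma adjusted p = 0.714) in AT10 against FCA, and it turned to −0.11 without FCA replicate 2. In AT1 against FCA it was −0.58 (SE 0.61, interval −2.10 to 0.93, adjusted p = 0.702), and it ranged from −1.11 without AT1 replicate 1 to −0.32 without AT1 replicate 3. In AT10 against AT1 it was 0.97 (SE 0.44, interval −0.13 to 2.07, adjusted p = 0.748), and it became 1.49 (adjusted p = 0.00734) without AT1 replicate 1, when both remaining AT1 libraries were at the lower level and 0.224% of all records passed.

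Ctsl, a broad endopeptidase, was the most abundant of the cysteine cathepsins and made up at most 65.7% of their summed FPKM and the larger part of it in every library. It was at 575, 501 and 557 FPKM in FCA and at 546, 514 and 528 FPKM in AT10. It was at 575, 610 and 641 FPKM in AT1 and at 607, 589 and 484 FPKM in AT01. The AT1 libraries were all above the FCA libraries, by little in the case of the nearest pair (575.36 against 574.60 FPKM), and all above the AT10 libraries. On the log2 scale Ctsl differed by 0.16 in AT1 against FCA (SE 0.08, 95% interval −0.03 to 0.35, limma adjusted p = 0.468, exact permutation p = 0.1) and −0.20 in AT10 against AT1 (SE 0.06, interval −0.35 to −0.04, adjusted p = 0.742, exact p = 0.1). An exact p of 0.1 is the smallest that 3 libraries against 3 can give.

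Ctsb, an endopeptidase that also cuts dipeptides from the carboxyl end, kept to a range of 1.25-fold, the narrowest of the 9 genes. It was at 249.6, 263.0 and 253.2 FPKM in FCA and at 243.7, 247.1 and 225.0 FPKM in AT10. It was at 258.0, 267.4 and 251.4 FPKM in AT1 and at 282.3, 253.8 and 230.1 FPKM in AT01. The AT10 libraries lay below all FCA and all AT1 libraries, by −0.10 against FCA (SE 0.06, 95% interval −0.24 to 0.05, limma adjusted p = 0.543) and −0.12 against AT1 (SE 0.06, adjusted p = 0.752) on the log2 scale.

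Ctsk, the collagen-cutting cathepsin, was at 51.6, 54.3 and 56.4 FPKM in FCA and at 53.5, 56.7 and 59.8 FPKM in AT10. It was at 60.9, 60.1 and 80.3 FPKM in AT1 and at 63.1, 62.9 and 52.4 FPKM in AT01. All AT1 libraries were above all FCA and all AT10 libraries, and AT1 replicate 3 stood alone at the top. The log2 fold change in AT1 against FCA was 0.29 (SE 0.13, 95% interval −0.02 to 0.61, limma adjusted p = 0.453, exact permutation p = 0.1), and 0.16 without AT1 replicate 3. Over the 3 doses together it was 0.16 (SE 0.10, interval −0.06 to 0.39, adjusted p = 0.549), with 7 of the 9 TCDCA libraries above every FCA library. Beside these values, the summed level of the osteoclast markers was between 20.1 and 25.5 FPKM in all libraries. Of these markers, Mmp9 averaged 14.9 FPKM, Itgb3 5.08 FPKM and Acp5 1.91 FPKM. Oscar, Atp6v0d2, Ocstamp and Tnfrsf11a reached at most 0.13, 0.09, 0.02 and 0.02 FPKM.

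Ctsz, a carboxypeptidase, was a low-level gene at 3.30, 3.44 and 3.41 FPKM in FCA and at 2.42, 2.09 and 3.35 FPKM in AT10. It was at 2.15, 3.53 and 2.04 FPKM in AT1 and at 2.57, 3.22 and 1.81 FPKM in AT01. The 3 FCA libraries were close together, 7 of the 9 TCDCA libraries were below all of them, and the AT01 libraries did not overlap FCA. The log2 fold change was −0.31 over the 3 doses together (SE 0.14, 95% interval −0.63 to 0.00, limma adjusted p = 0.420, exact permutation p = 0.0909). It was −0.29, −0.32 and −0.33 in AT10, AT1 and AT01 against FCA (adjusted p between 0.466 and 0.738), comparisons that share the 3 FCA libraries. These values depended on single libraries, and with each left out in turn they ranged from −0.43 to −0.18 in AT10, from −0.50 to −0.21 in AT1 and from −0.47 to −0.18 in AT01. Ctss, the cathepsin best known from antigen-presenting cells, was between 0.26 and 0.84 FPKM in all 12 libraries, under the limit of a mean of 1 FPKM set for testing.

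Ctsd, the main aspartic protease of the lysosome, was at 369.7, 398.0 and 355.9 FPKM in FCA and at 347.9, 360.7 and 332.6 FPKM in AT10. It was at 363.2, 395.9 and 394.7 FPKM in AT1 and at 431.1, 376.2 and 380.7 FPKM in AT01. The AT10 libraries lay below all AT1 and all AT01 libraries and overlapped FCA. On the log2 scale the difference was −0.11 in AT10 against FCA (SE 0.07, 95% interval −0.27 to 0.05, limma adjusted p = 0.540), −0.15 against AT1 (SE 0.06, adjusted p = 0.748) and −0.19 against AT01 (SE 0.09, adjusted p = 0.867).

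Ctsa, which also protects other lysosomal enzymes from breakdown, was at 162.0, 177.7 and 159.1 FPKM in FCA and at 127.2, 157.8 and 144.8 FPKM in AT10. It was at 156.0, 164.3 and 158.1 FPKM in AT1 and at 171.2, 141.8 and 140.6 FPKM in AT01. The AT10 libraries were all below the FCA libraries, and 7 of the 9 TCDCA libraries were. The log2 fold change was −0.22 in AT10 against FCA (SE 0.10, 95% interval −0.46 to 0.02, limma adjusted p = 0.445, exact permutation p = 0.1) and −0.14 over the 3 doses (SE 0.08, interval −0.32 to 0.04, adjusted p = 0.522).

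None of the 8 members tested passed an adjusted p under 0.05 in any of the 7 comparisons by limma. Of all records tested, 0.172% passed for AT10, 0.0947% for AT1 and 0.0947% for AT01 against FCA. Between doses the shares were 0.258% for AT10 and AT1, 0.0689% for AT10 and AT01, and 0.129% for AT1 and AT01, and for the 3 doses against FCA the share was 0.0258%. The criterion of the study combines an unadjusted p under 0.05 and a log2 difference beyond 1 in either direction, and on the limma p it too called 0 members in each comparison. It called 0.706% of all records for AT10, 0.62% for AT1 and 0.758% for AT01 against FCA, 0.594%, 0.672% and 0.568% in the dose pairs as ordered above, and 0.491% for the 3 doses. At an unadjusted p under 0.05 alone, 1 member was counted, Ctsl between AT10 and AT1 (limma p = 0.0203 beside the exact permutation p of 0.1), where 6.46% of all records were. The other comparisons counted 0 members, beside 11.9% of records for AT10, 11% for AT1 and 6.6% for AT01 against FCA, 4.97% and 3.43% for AT01 with AT10 and with AT1, and 12% for the 3 doses. A test per record in the manner of Ballgown, with a total of each library as a covariate, also gave 0 members at an adjusted p under 0.05. At an unadjusted p under 0.05 it counted Ctsz in AT10 against FCA, beside 10.7% of all records, Ctsb in AT10 against AT1, beside 8.81%, and Ctsz for the 3 doses, beside 8.65%. In AT1 against AT01 it counted 2 members, Cstb and Ctsz, beside 5.9%, and in the other comparisons 0, beside 6.8% for AT1 and 5.78% for AT01 against FCA and 5.23% for AT10 against AT01. With this test 1 member, Cstb in AT1 against AT01, met the criterion of the study, beside 0.827% of all records. Its coefficient of 1.57 is adjusted for the library total and is not a difference of group means, and without that covariate it was 0.79 and the criterion was not met.

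Members whose groups did not overlap were counted beside the share of all records that did the same. For AT10 against FCA, 2 were lower, Ctsb and Ctsa, beside 9.18% of all records, and 0 higher, beside 10.7%. With AT1 against FCA, 2 were higher, Ctsk and Ctsl, beside 9.87%, and 0 lower, beside 10%. AT01 had 1 lower than FCA, Ctsz, beside 8.06%, and 0 higher, beside 5.97%. AT10 had 4 lower than AT1, Ctsb, Ctsd, Ctsk and Ctsl, beside 8.16%, and 0 higher, beside 5.7%. Against AT01 it had 1 lower, Ctsd, beside 6.47%, and 0 higher, beside 4.64%. Between AT1 and AT01 there were 0 in both directions, beside 4.86% higher and 3.75% lower, as for the 3 doses together, beside 0.956% higher and 1.9% lower. The summed fibroblast markers were also lower in AT10 (10227.5 to 11455.1 FPKM) than in FCA (11772.5 to 12283.9 FPKM), AT1 (11547.6 to 12142.4 FPKM) and AT01 (11628.7 to 12143.4 FPKM), without overlap. Single markers went both ways: 4 of the 13 had a log2 fold change above 0 in AT10 against FCA. By limma 0 passed an adjusted p under 0.05, beside 0.172% of all records. At an unadjusted p under 0.05, 3 were higher and 3 lower, beside 11.9% of all records in both directions together. Their part in the lower cathepsin levels of AT10 was not tested.

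**Figure D2:**
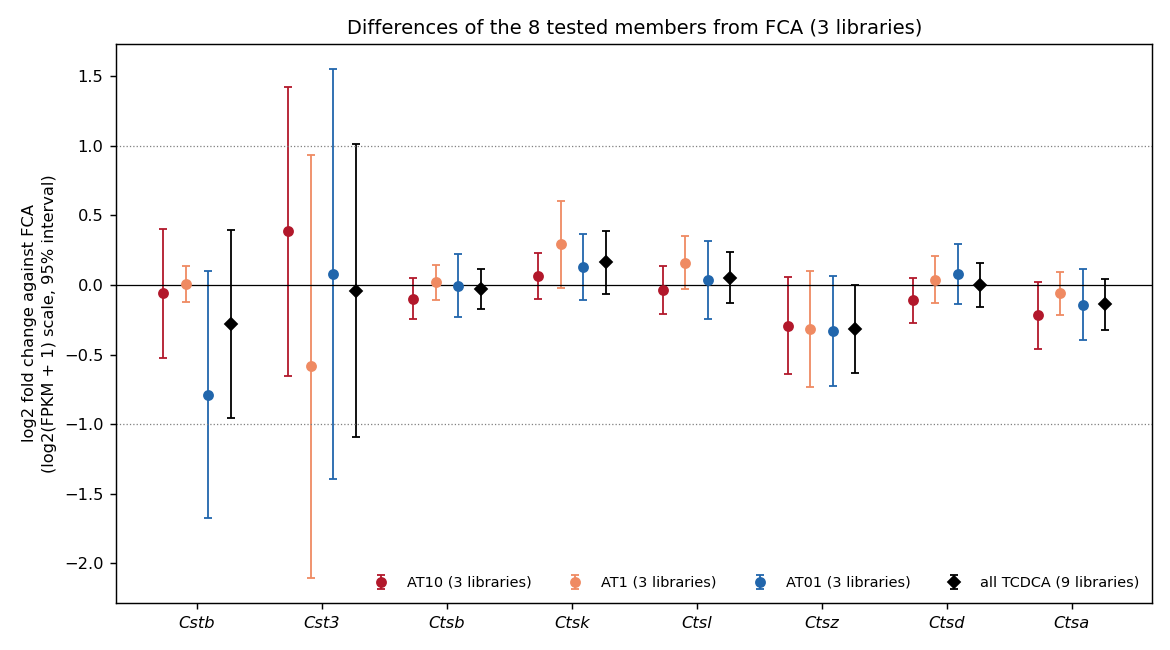
Log2 fold change on the log2(FPKM + 1) scale of the 8 members tested for each dose and for the 9 TCDCA libraries together, all against the same 3 FCA libraries, with 95% intervals from limma and dotted lines at 1 and −1. Every interval includes 0, and those of Cst3 and of Cstb in AT01 are the widest.

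Asked over all 4 groups at once, the F test of limma gave 0 of 8 members at an adjusted p under 0.05, beside 0.0431% of all records, and 0 members at an unadjusted p under 0.05, beside 8.57%. The smallest adjusted p was that of Cstb, 0.605. The groups accounted for 52.1% of the variance of Ctsd (exact permutation over all groupings of the libraries into 4 sets of 3, p = 0.109) and 49.2% of that of Cstb (exact p = 0.163), against 24.0% of that of Cst3 (exact p = 0.589).

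Pooled over the 4 groups, the inhibitors varied more between libraries of a group than the abundant cathepsins did. This did not hold in every group. In FCA, Cstb was at 182.1 ± 3.3 FPKM (SD, n = 3), beside 255.3 ± 6.9 FPKM for Ctsb. In AT10, Cst3 was at 492.2 ± 7.9 FPKM, beside 238.6 ± 11.9 FPKM for Ctsb. The pooled SD within groups on the log2 scale was 0.765 for Cst3 and 0.416 for Cstb, and 94.8% and 85.3% of the records tested had a smaller one. It was 0.0820 for Ctsd and 0.0872 for Ctsb, with 10.5% and 12.8% of records below, and 0.112, 0.121 and 0.148 for Ctsl, Ctsa and Ctsk. This is a description of spread, with no test. The lowest and highest libraries differed 3.32-fold for Cst3 and 2.87-fold for Cstb, but 1.25-fold for Ctsb, 1.30-fold for Ctsd and 1.32-fold for Ctsl.

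Set against each other within a library, the summed FPKM of the 2 inhibitors ranged from 348.3 to 720.5, a factor of 2.07, and that of the 5 cysteine cathepsins from 768.7 to 975.2, a factor of 1.27. The ratio of the inhibitors to the cysteine cathepsins was 0.819, 0.449 and 0.813 in FCA and 0.831, 0.825 and 0.773 in AT10. It was 0.789, 0.385 and 0.357 in AT1 and 0.681, 0.702 and 0.503 in AT01. The 4 libraries with the lowest ratios were those at the lower level of Cst3, and AT10 was the group with the least spread, 0.810 ± 0.0321 (SD, n = 3), against 0.694 ± 0.212 in FCA, 0.510 ± 0.242 in AT1 and 0.629 ± 0.110 in AT01. The ranges of all 4 groups overlapped, except that AT10 lay above AT01, and that separation is a description of a sum over chosen genes. The ratio compares RNA levels and holds no value for protein or enzyme activity.

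**Figure D3:**
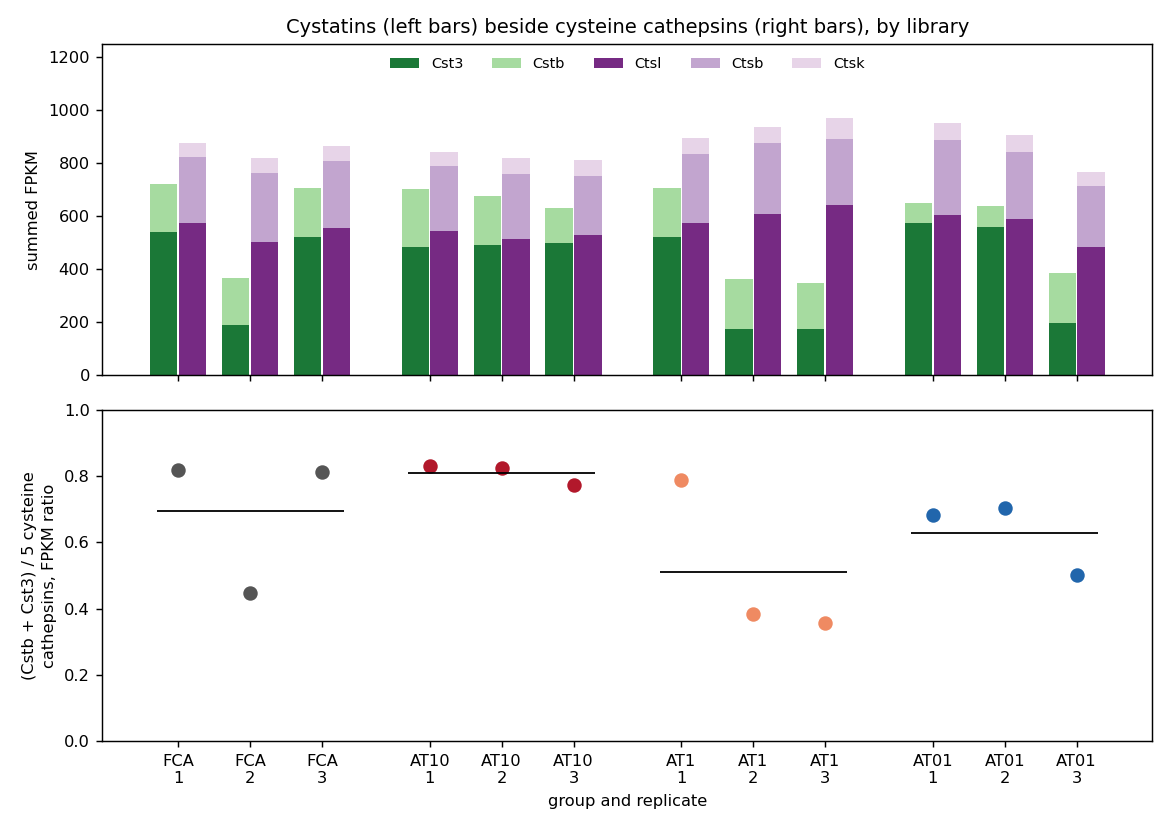
Upper panel, stacked FPKM of the cystatins and of the cysteine cathepsins in each of the 12 libraries, where Ctsz and Ctss are too low to be drawn; lower panel, the ratio of the inhibitor sum to the cysteine cathepsin sum, with a line at each group mean. The ratio falls to between 0.357 and 0.503 in the 4 libraries at the lower level of Cst3, while the cathepsin sum stays between 768.7 and 975.2 FPKM.

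The records whose pattern over the 12 libraries was most like that of Cstb were found by the root mean square difference of log2(FPKM + 1) values, each centred on its own mean, over 11610 records. They were Mid2 (0.233), Zdhhc15 (0.238), Rps2 (0.256), Sntb1 (0.266) and Lyrm7 (0.297), where a flat profile would differ from Cstb by 0.476. Rps2, a protein of the small ribosomal subunit, was the only one of the 5 with a high level, at 574.9 and 592.4 FPKM in AT01 replicates 1 and 2 and between 601.9 and 1376.4 FPKM in the other 10 libraries. None of the 5 was a cathepsin, a cystatin or another gene of the lysosomal lists. Those lists held 29 enzymes, 27 membrane genes and 14 sorting genes among the 11610 records. They are so few that finding none among 5 says nothing about Cstb.

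**Figure D4:**
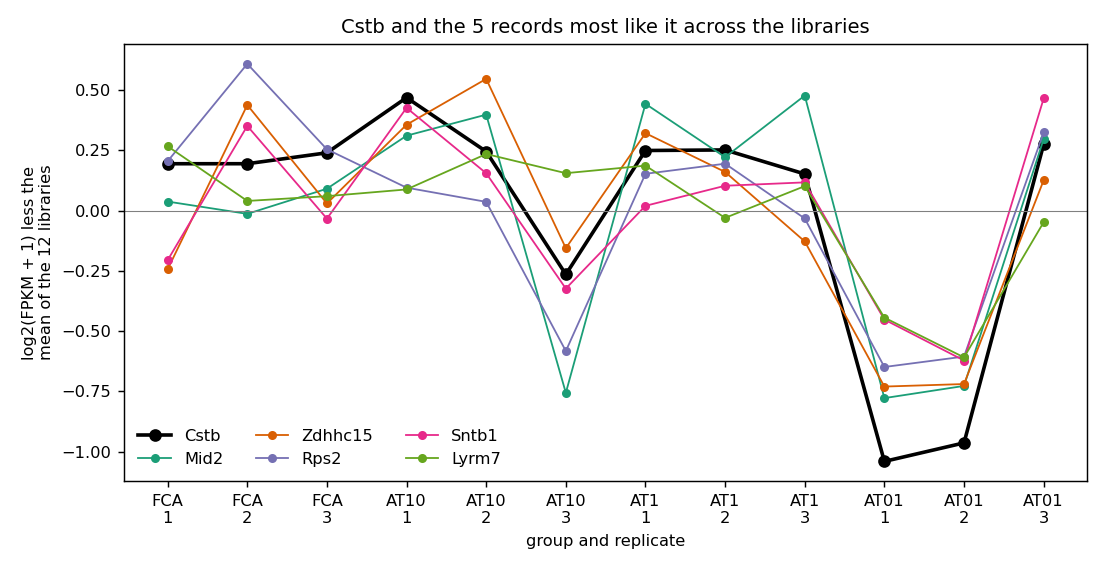
Log2(FPKM + 1) less its own mean over the 12 libraries for Cstb and for the 5 records most like it, by library. The records share low values in AT01 replicates 1 and 2, which follows from their choice by likeness to Cstb over these libraries. Mid2 and Rps2 are also low in AT10 replicate 3 (−0.76 and −0.58, beside −0.27 for Cstb). The root mean square differences from Cstb are between 0.233 and 0.297.

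Other genes of the pathway were taken from lists of cathepsins, cystatins and lysosomal genes. Of 14 other cathepsins and related proteases, 5 were found and 3 were tested. Ctsh, an aminopeptidase, averaged 107.6 FPKM, Ctsf 43.6 FPKM and Lgmn, the asparaginyl endopeptidase that processes several cathepsins, 42.0 FPKM. Over the 3 doses against FCA their log2 fold changes were −0.01, 0.10 and 0.03, with limma adjusted p between 0.708 and 0.949. Of 20 other cystatins and related inhibitors, 5 were found, and only Cst6 passed the filter, at 0.75 to 1.42 FPKM, so Cstb and Cst3 were the abundant inhibitors among those found.

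The wider lysosomal lists held 29 hydrolases and other enzymes tested, 27 genes of the membrane and of acidification and 14 genes of sorting and of TFEB. None of them passed an adjusted p under 0.05 by limma in any of the 7 comparisons. At an unadjusted p under 0.05 in AT10 against FCA, where 11.9% of all records passed, 0 enzymes were higher and 1 lower, 2 membrane genes were higher and 3 lower, and 1 sorting gene was higher and 0 lower. Over the 3 doses together 0 were higher and 1 lower in each list, beside 12% of all records. Their median log2 fold changes over the 3 doses were 0.00, −0.02 and −0.04, beside a median of 0.00 over all records tested. In AT10 against AT1, 2 of the 29 enzymes, 11 of the 27 membrane genes and 6 of the 14 sorting genes were higher. The medians were −0.090, −0.010 and −0.0003, beside −0.011 over all records. In AT10 against FCA, 8, 14 and 4 were higher, with medians of −0.068, 0.010 and −0.051, beside −0.009. In both comparisons the median of the lysosomal enzymes was below that of all records. This is a description of signs and medians, was not tested, and the share of all records that were higher was not counted.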

How the data were processed

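Poly(A) RNA of 12 FLS libraries was sequenced, and the authors used HISAT2 for alignment and StringTie and Ballgown for assembly and levels. The deposited values are FPKM to 2 decimals for 22442 gene records. The labels also name cutadapt and edgeR, with no role, and the genome build is not given in the sources used here. The labels and the study's methods name different sequencers and amounts of RNA. Reads shared with near-identical copies may be split between records. Groups were taken from the sample labels. Values were transformed as log2(FPKM + 1), so that folds of low genes are understated, and 11611 records averaging 1 FPKM or more were fitted with limma 3.58.1 in R 4.3.3 (lmFit, eBayes with trend), 2 groups at a time, for 6 pairs of groups and for 9 TCDCA libraries against 3 FCA libraries, and once over 4 groups. P-values were adjusted by Benjamini-Hochberg over all records tested. Exact permutation tests were two-sided, with a smallest p of 0.1 for 3 against 3. The fits were run on simulated data with shifts larger than any member difference, which checks the code and not the power to detect such differences. Named were all 9 members, other cathepsins and cystatins of at least 10 FPKM (Cst6 was added after its values were seen), list genes under an adjusted p of 0.05, and the 5 records most like Cstb. The members and lists were chosen with earlier results of these data known. Promoter sequences are from RefSeq (GRCr8), and gene names without a record were not analysed here. Python 3.11.15, NumPy 2.4.6, SciPy 1.17.1, pandas 2.3.3 and Matplotlib 3.10.9 were used.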

Additional observations from a re-analysis of the deposited data

Results flagged for a closer look

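Among the 9 TCDCA libraries, Ctsk in AT1 replicate 3, at 80.3 FPKM, lay far above the others: its gap to the nearest library was 0.618 of the range of the 9, over Dixon's 95% critical value of 0.493. The 9 libraries span 3 doses, and chance flags about 1 in 20 such groups. All 9 members were checked in this way, so a flag in 1 of them carries less weight than in a single check.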

How the results depend on the processing

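Over 130 alternatives to the counts of members called, 127 gave 0. The counts at an adjusted p under 0.05 ranged from 0 to 1 when single libraries were left out: 1 in AT01 against FCA and 1 in AT1 against AT01 without AT01 replicate 3 (Cstb), and 1 in AT10 against AT1 without AT1 replicate 1 (Cst3), where 0.138%, 0.215% and 0.224% of all records passed. The criterion of the study gave 1 in these 3 cases, beside 0.784%, 0.525% and 0.706% of all records, and 1 in AT10 against AT01 without AT01 replicate 3 (Cstb, 1.15), beside 1.21%. It also gave 1 in AT1 against AT01 with the test in the manner of Ballgown, where Cstb had a coefficient of 1.57 (unadjusted p = 0.0404, adjusted p = 0.808). That coefficient is adjusted for a library total of which 56.5% of the variance lay between these groups, and is not a difference of group means. Without the covariate, an alternative chosen after seeing the data, it was 0.79 and the count 0. The log2 fold change of Cst3 in AT10 against FCA reversed to −0.11 without FCA replicate 2, and ranged up to 0.65 without the other libraries in turn. The inhibitor ratio with Cst3 alone was 0.481 in FCA, 0.595 in AT10, 0.315 in AT1 and 0.490 in AT01, and over all 7 cathepsins it was 0.429, 0.509, 0.323 and 0.388, by construction. Without AT01 replicates 1 and 2, chosen after seeing the data, it was 0.503 in AT01. With the replicate number as a block, 0 members were called in each comparison. No pairing by number was seen: correlations of deviations between same-numbered libraries were from −0.105 to 0.0942, beside −0.154 to 0.149 between differently numbered ones. Such values cannot show whether same-numbered libraries came from 1 repeat. Without the 4 libraries at the lower level of Cst3, chosen after seeing the data, 0 members were called over the 3 doses. The depth behind single values is unknown.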
